A study of Mus musculus with 27 samples.

Results

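A set of 10 genes encoding amino acid transporters of the kidney tubule and their partner subunits were followed in mouse kidneys after graded warm ischemia. They were taken by symbol from the deposited expression table, in which all 10 of the 10 symbols were present among 19392 genes. In the study's model, C57BL/6 mice lost the right kidney and had the left renal pedicle clamped. Clamping lasted 0, 16, 18, 20, 22, 24, 26, 28 or 30 min. The 0 min group is labelled sham, and its surgery was not described separately, so its nephrectomy is taken from the description of the model. Mice lay on a heated plate during surgery, and the left kidney was taken after 24 h of reperfusion. Each of the 9 ischemia times had 3 mice, which gave 27 kidneys. Age was not given in the labels. RNA was from kidney tissue containing all cell types, so fewer cells of a type and less RNA per cell cannot be told apart.

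Amino acids filtered by the glomerulus are taken back almost entirely in the proximal tubule, through transporters in the brush border facing the urine and others in the basolateral membrane facing the blood. Many of them are pairs of a heavy chain, which carries the complex to the membrane, and a light chain, which moves the substrate. Slc3a1 (rBAT) is the heavy chain of the brush border, where it joins Slc7a9 (b0,+AT) to take up cystine and dibasic amino acids, and Slc7a13 (AGT1), a cystine and acidic amino acid transporter of the late (S3) proximal tubule. Slc3a2 (4F2hc) is the heavy chain of the basolateral membrane, where it joins Slc7a7 (y+LAT1), Slc7a8 (LAT2) and Slc7a5 (LAT1). Slc6a19 (B0AT1) and Slc6a18 (B0AT3) take up neutral amino acids in the brush border with the help of collectrin, and Slc1a1 (EAAC1) takes up glutamate and aspartate.

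Expression was measured by RNA-Seq and is given as FPKM, a level that divides the fragments of a gene by transcript length and sequencing depth. Differences are given as log2 differences on the scale log2(FPKM + 1), tested with limma over 18188 genes with Benjamini-Hochberg adjustment. A gene was called higher or lower at an absolute log2 difference above 1 and an adjusted p under 0.05. Read counts were not part of the values, so the absolute depth was unknown. A rough estimate from the lowest FPKM values above 0 of 428 genes gave relative depths between 0.983 and 1.04 over the kidneys. For each gene only values close to its lowest were kept, so the estimate could not show a large difference in depth. The 12 proximal tubule markers, which include the endocytic receptors Lrp2 and Cubn and the phosphate transporter Slc34a1, were above 0 FPKM in every ischemia group. Several kidneys stood apart from their groups. Havcr1 (KIM-1), a marker of injured tubules, was at 332, 574 and 35.1 FPKM in the 3 kidneys of 16 min, and the low kidney was replicate 3. At 0 min it was at 2.81, 2.49 and 22.0 FPKM, so replicate 3 of the sham group was the highest there. Replicate 1 of 16 min was the lowest of its group for 5 of the 10 genes, and replicate 3 of 30 min had a summed FPKM of 3 loop of Henle markers of 2190 where the other kidneys of 30 min had 509.1 and 504.3. Results that change without these libraries are given with and without them.

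**Figure D1:**
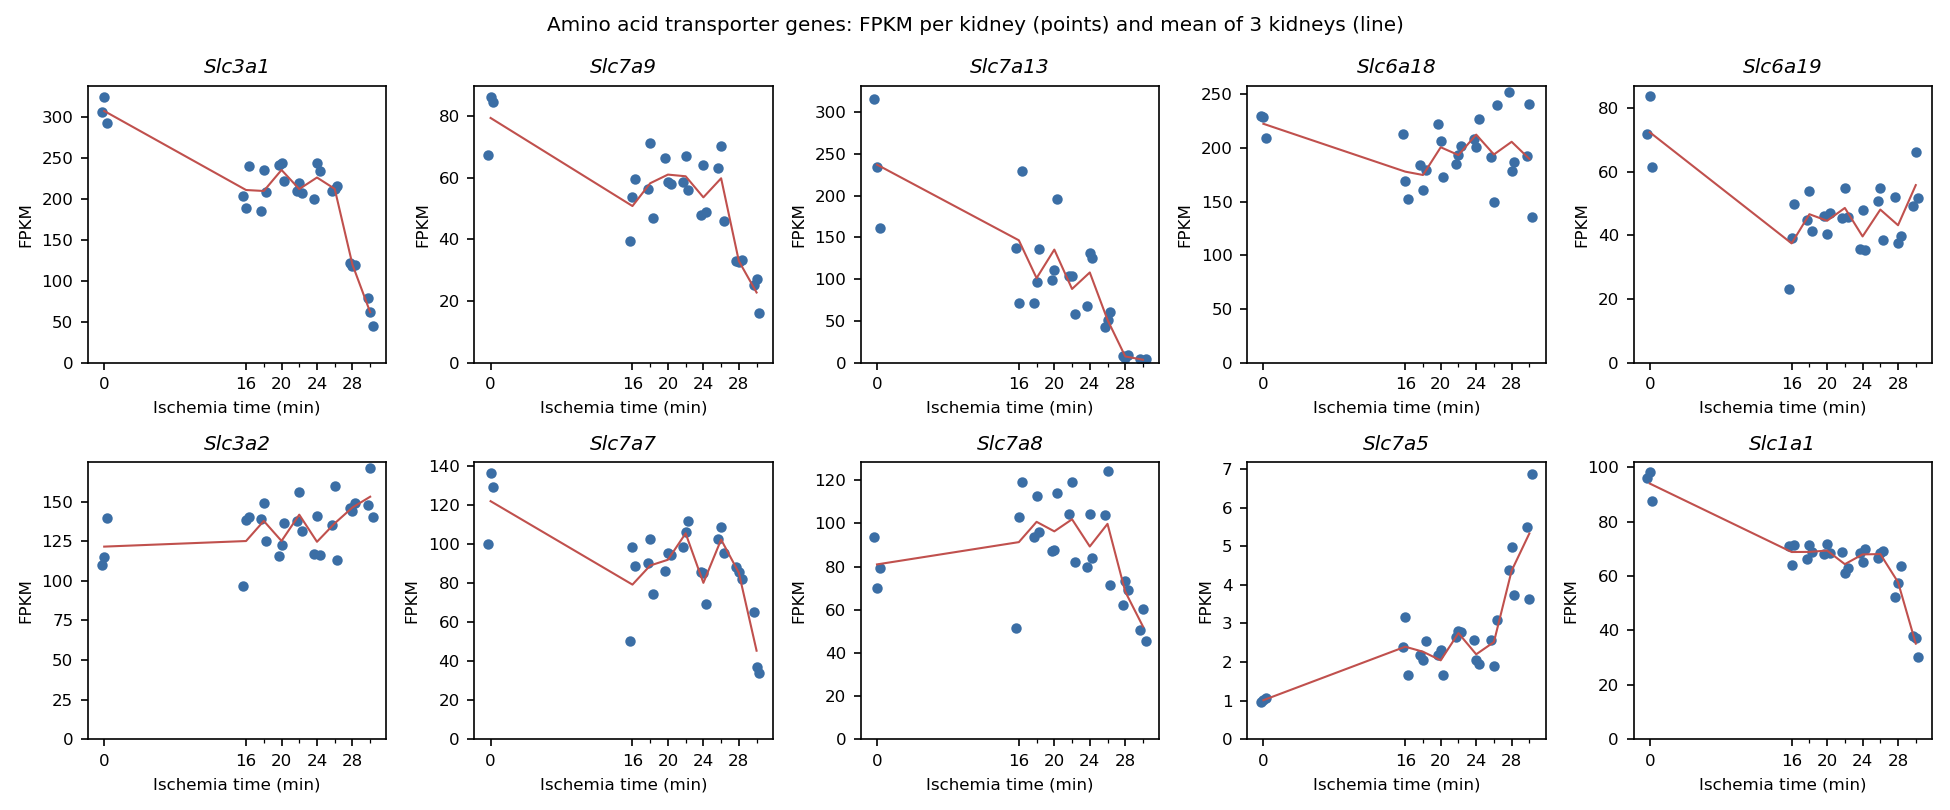
FPKM of the 10 genes (y axis, linear from 0) against ischemia time in min (x axis), with 1 point per kidney, shifted slightly sideways by replicate, and a line through the means of 3 kidneys. Slc7a13 fell from 161 to 316 FPKM at 0 min to 1.99 to 4.30 FPKM at 30 min, while Slc7a5 stood at 0.950 to 1.06 FPKM at 0 min and 3.63 to 6.88 FPKM at 30 min.

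The 10 genes moved in different directions. At 30 min, 5 were called lower than at 0 min (Slc7a13, Slc3a1, Slc7a9, Slc7a7 and Slc1a1) and 1 was called higher (Slc7a5), against 10.7% of all genes called in either direction. The remaining 4 (Slc3a2, Slc7a8, Slc6a19 and Slc6a18) were not called. The median log2 difference of the 10 genes was -1.03, beside 0.00077 over all genes tested. The FPKM of the groups did not overlap for 8 of the 10 genes, where this held for 54.5% of all genes. At 16 min, 1 of the 10 was called (Slc6a19, lower), against 2.25% of all genes, and the groups did not overlap for 6 of the 10 genes against 28.1% of all genes. All comparisons with 0 min share the same 3 sham kidneys.

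Smaller differences were present at every ischemia time. By the adjusted p of limma alone, with no fold threshold, 6 of the 10 genes differed from 0 min at 16 min, against 19% of all genes. At 18 min these were 5 genes against 27.8%, at 20 min 4 against 22.8%, and at 22 min 5 against 28.8%. At 24 min they were 7 genes against 28.3%, and at 26 min 5 against 30.1%. Slc3a1, Slc1a1 and Slc6a19 (lower) and Slc7a5 (higher) were among them at each of these 6 times. At 28 min 6 genes passed against 48.2% of all genes, and at 30 min 8 against 52.3%. Between 26 and 28 min 5 genes passed (19.3% of all genes), between 28 and 30 min 3 (13.2%), and between 16 and 30 min 9 (40.6%).

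The brush-border heavy chain Slc3a1 lies on the plus strand of chromosome 17, at chr17:85028376-85064236 of GRCm38, with 10 exons in its main transcript. It was the most abundant of the 10 genes over all kidneys, with a mean of 199.6 FPKM and rank 409 of all genes by mean FPKM. The 250 bases before its start site are shown because Slc3a1 is the partner shared by Slc7a9 and Slc7a13. They are from RefSeq, GRCm38.p6, chr17:85028097-85028346, plus strand, and capitals mark the letters CAAAGTCCA (the core of an HNF4 site) and TATAAA, searched on both strands, with a pair of TATAAA matches overlapping near the end.

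Slc3a1: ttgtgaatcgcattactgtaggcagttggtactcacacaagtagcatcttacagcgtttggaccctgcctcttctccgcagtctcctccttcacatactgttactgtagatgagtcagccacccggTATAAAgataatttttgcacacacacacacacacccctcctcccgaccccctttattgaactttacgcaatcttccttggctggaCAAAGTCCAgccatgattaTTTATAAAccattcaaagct

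CAAAGTCCA began 39 bases before the start site, and it was held by 0.475% of the 32851 promoter windows of 300 bases, against 13.6% with TATAAA. Promoter windows were found for 7 of the 10 genes, in 12 windows, and Slc3a1 was the 1 gene among them with either of these words. Windows were not used for Slc7a13, Slc6a18 and Slc7a5. The full word of an HNF1 site was in 0 of the 12 windows and in 0.00913% of all windows. TGATGNAA, an ATF4 element, was in windows of Slc7a7 and in 3.97% of all windows. GGGCGG, a GC box, was in windows of Slc1a1, Slc3a2, Slc7a7 and Slc7a8 and in 35.7% of all windows. These are matches of letters only, and none is shown here to be a bound site.

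Slc3a1 stood at 306, 324 and 293 FPKM in the sham kidneys. It was at 203, 189 and 241 FPKM at 16 min and stayed between 185 and 244 FPKM in the 18 kidneys from 16 to 26 min. Every one of these kidneys was below every sham kidney. Slc3a1 was then at 122, 118 and 120 FPKM at 28 min and at 78.5, 61.9 and 44.4 FPKM at 30 min, and neither group overlapped with the one before it. The log2 difference from 0 min was -0.60 ± 0.13 (SE, n = 3 against 3) at 16 min (limma adjusted p = 0.0031, not called because the change was under the threshold), -0.55 at 26 min, -1.38 at 28 min and -2.33 ± 0.13 at 30 min (adjusted p = 4.7e-11). Between 26 and 28 min it fell by 0.83 on the log2 scale (adjusted p = 0.00021), and between 28 and 30 min by 0.95 (adjusted p = 0.0002). The ratio of the mean FPKM at 0 min to that at 30 min was 4.995.

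Slc7a9, the light chain that with Slc3a1 forms the cystine transporter lost in cystinuria, lies at chr7:35448796-35466036 of GRCm38 on the plus strand, with 13 exons. It stood at 67.4, 86.4 and 84.7 FPKM at 0 min and between 39.4 and 71.5 FPKM from 16 to 26 min, where 2 kidneys, at 71.5 and 70.3 FPKM, passed the lowest sham kidney. It was at 33.0, 32.6 and 33.4 FPKM at 28 min and at 25.1, 27.1 and 16.1 FPKM at 30 min. All 6 kidneys of 28 and 30 min were below all others. Slc7a9 was called at 28 min (log2 difference -1.32 ± 0.20, limma adjusted p = 1.5e-05) and at 30 min (-1.83 ± 0.20, adjusted p = 1.7e-07). Between 26 and 28 min the log2 difference was -0.86 (adjusted p = 0.0047), under the threshold for a call, and without replicate 3 of 26 min it was called, at -1.03.

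Slc7a13, the other partner of Slc3a1, lies at chr4:19818725-19842218 of GRCm38 on the plus strand, with 4 exons and 1 annotated transcript. It had the largest fall of the 10 genes. It was at 316, 235 and 161 FPKM in the sham kidneys, and at 138, 72.0 and 230 FPKM at 16 min. It was at 42.2, 51.5 and 60.2 FPKM at 26 min. It was at 7.53, 5.85 and 8.73 FPKM at 28 min and at 3.98, 1.99 and 4.30 FPKM at 30 min. The sham and 16 min kidneys overlapped, whereas the kidneys of 26, 28 and 30 min formed 3 separate ranges in falling order. The mean FPKM was 69.3 times higher at 0 min than at 30 min, and 6.96 times higher at 26 min than at 28 min.

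The log2 difference of Slc7a13 from 0 min was -2.16 ± 0.38 (SE) at 26 min (limma adjusted p = 0.00033), -4.82 at 28 min (adjusted p = 1.1e-08) and -5.74 ± 0.38 at 30 min (adjusted p = 3.9e-10). Between 26 and 28 min it fell by 2.66 (95% interval -3.46 to -1.86, adjusted p = 0.00012). It was the 1 gene of the 10 called in that step, against 1.5% of all genes, and 0 of the 10 were called between 28 and 30 min, against 1.05% of all genes, with 5 of the 10 and 26.8% of all genes at an unadjusted p under 0.05. Without replicate 3 of 26 min Slc7a9 was also called between 26 and 28 min (-1.03), and without replicate 1 of 30 min Slc7a7 (-1.21) and Slc3a1 (-1.14) were called between 28 and 30 min. At 30 min against 16 min, Slc7a13 (-4.93), Slc3a1 (-1.73) and Slc7a9 (-1.15) were called lower, 3 of the 10 against 6.23% of all genes. Without replicate 3 of 30 min, Slc7a9 was not called there (-0.93). Without replicate 1 of 16 min the count was 5, as Slc7a7 (-1.09) and Slc7a8 (-1.05) were also called lower, and it was likewise 5 without replicate 2 of 16 min, where Slc1a1 (-1.004) was called lower and Slc7a5 (1.03) higher.

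At shorter times the calls of Slc7a13 rested on single kidneys. It was called at 18 min (log2 difference -1.25, limma adjusted p = 0.0193, background 3.06%), at 22 min (-1.43, adjusted p = 0.0085, 3.29%) and at 24 min (-1.17, adjusted p = 0.0277, 3.12%), and in each of these comparisons it was the 1 gene of the 10 called. At 26 min it was again the 1 gene called, against 3.77% of all genes. At 20 min 0 of the 10 genes were called by limma, against 2.51% of all genes, with 6 of the 10 and 35.2% of all genes at an unadjusted p under 0.05. The call at 18 min was lost without replicate 1 of 0 min (adjusted p = 0.0948), replicate 2 of 0 min (0.0531) or replicate 1 of 18 min (0.0973). The call at 22 min was lost without replicate 3 of 22 min (adjusted p = 0.0579). The call at 24 min was lost without replicate 1 of 0 min (0.127), replicate 2 of 0 min (0.0692) or replicate 1 of 24 min (0.139). In fits of only the compared groups the calls at 18 min (adjusted p = 0.0556) and 24 min (0.0731) were lost. Without replicate 3 of 0 min or replicate 2 of 24 min, Slc6a19 was called lower at 24 min beside Slc7a13 (-1.05 and -1.07). At 16 min Slc7a13 was not called (-0.82, adjusted p = 0.149), and without replicate 3 of 16 min, the kidney with the low Havcr1, it was called (-1.21, adjusted p = 0.0251). That kidney was also the highest of its group for Slc7a13, and without replicate 2 of 16 min, the lowest, the difference was -0.39.

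Slc7a13 was the most variable of the 10 genes between kidneys of 16 to 26 min, where its highest value, 230 FPKM, was 5.46 times its lowest, 42.2 FPKM. The same span was 1.17-fold for Slc1a1 and 1.32-fold for Slc3a1. Over these 18 kidneys the slope of Slc7a13 on ischemia time was -0.10 per min on the log2 scale (95% interval -0.18 to -0.02, unadjusted p = 0.0129, limma adjusted p = 0.438). No trend of the 10 genes was called, 0 of 10 against 0.011% of all genes, with 1 of the 10 and 8.81% of all genes at an unadjusted p under 0.05. Between neighbouring times from 16 to 26 min, 0 of the 10 genes and 0% of all genes were called in any of the 5 comparisons by limma, and at an unadjusted p under 0.05 the count was 1 of the 10 genes (Slc7a13, lower) at 26 against 24 min, against 6.05% of all genes. It was 0 of the 10 in the other comparisons, against 5.37% of all genes at 18 against 16 min, 2.83% at 20 against 18 min, 2.46% at 22 against 20 min and 2.58% at 24 against 22 min.

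**Figure D2:**
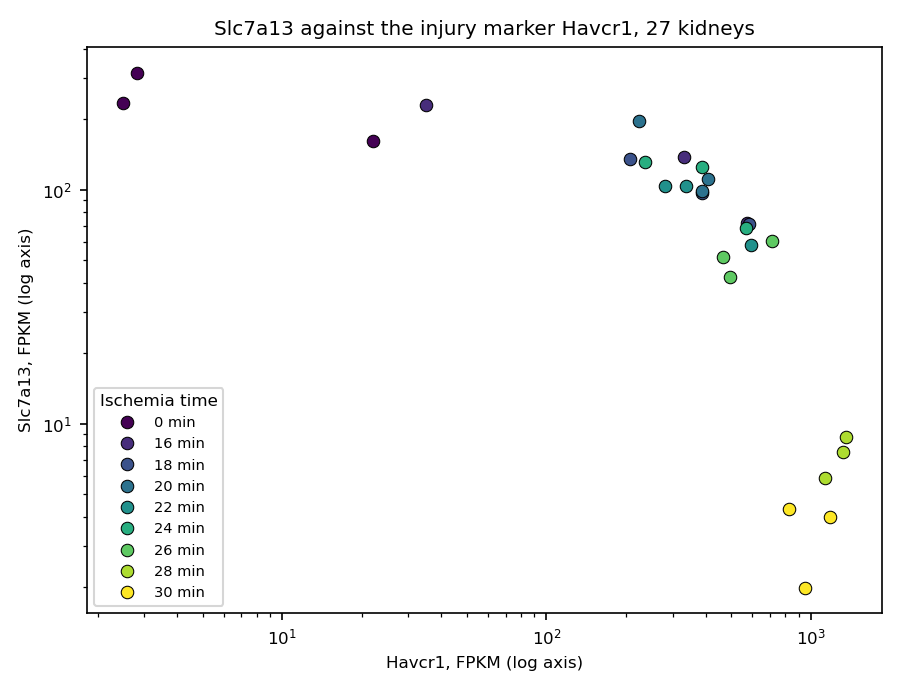
Slc7a13 (y axis, FPKM, log axis) against Havcr1 (x axis, FPKM, log axis) in the 27 kidneys, with 1 point per kidney coloured by ischemia time. Replicate 3 of 16 min, with Havcr1 at 35.1 and Slc7a13 at 230 FPKM, lies near the sham kidneys, and the 6 kidneys of 28 and 30 min have Havcr1 of 831 FPKM or more and Slc7a13 of 8.73 FPKM or less.

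Havcr1 was set against each of the 10 genes in the 18 kidneys from 16 to 26 min, a set of 10 relations chosen after the values had been seen. Kidneys with more Havcr1 had less Slc7a13 (Pearson r = -0.795, Spearman rho = -0.861, both permutation p = 1e-05, the smallest that 100000 permutations can give, adjusted p = 0.0001 over 10 relations). The permutations ran over all 18 kidneys and took no account of ischemia time. How many of all genes were as closely related to Havcr1 was not computed. Pearson's r was -0.8 without the 2 kidneys farthest from the median of Havcr1. Between deviations from the mean of each ischemia time it was -0.812, which was not tested. The next relation was that of Slc7a5 (r = 0.541, permutation p = 0.0124, adjusted p = 0.062), with r = 0.294 without the 2 farthest kidneys and r = 0.661 between deviations from the mean of each ischemia time. Between such deviations r was also -0.606 for Slc3a1, -0.578 for Slc6a19 and -0.543 for Slc7a8, and these values were not tested. For the other 8 genes the adjusted p-value of Pearson's r was 0.153 or more.

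Slc6a19 and Slc6a18, both neutral amino acid transporters of the brush border, are neighbours on the minus strand of chromosome 13, at chr13:73679745-73704865 and chr13:73661752-73678023 of GRCm38, with 1721 bases between them and 12 exons each. Slc6a19, whose loss causes Hartnup disorder, was at 71.7, 83.8 and 61.5 FPKM at 0 min. At 16 min it was at 23.2, 39.3 and 49.9 FPKM, and no kidney from 16 to 28 min reached the lowest sham kidney. At 30 min it was at 49.3, 66.1 and 51.8 FPKM, and 1 kidney lay inside the sham range. The log2 difference of Slc6a19 was -1.04 ± 0.22 (SE) at 16 min (limma adjusted p = 0.0026), -0.64 in the 26 min group, -0.81 at 28 min (adjusted p = 0.0042) and -0.38 ± 0.22 at 30 min (adjusted p = 0.152). The call at 16 min stood at the fold threshold and was lost without replicate 2 of 0 min (-0.93) or replicate 1 of 16 min (-0.72), and also without quantile normalization (-0.99), with the FPKM of every kidney brought to the same sum (-0.99) and in a fit of only these 2 groups (adjusted p = 0.162).

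Slc6a18 was at 230, 229 and 209 FPKM at 0 min, between 149.98 and 240.49 FPKM from 16 to 26 min, at 252, 179 and 187 FPKM at 28 min and at 193, 241 and 136 FPKM at 30 min. The sham range lay within the range of the 30 min kidneys. The log2 difference at 30 min was -0.10, with a 95% interval from -0.47 to 0.27 (limma adjusted p = 0.673). The interval excludes a fall of 1 on the log2 scale. Slc6a18 and Slc6a19 both take part in brush-border uptake beside Slc3a1, and their ratios to it were set out after the values had been seen. Slc6a18 over Slc3a1 was between 0.706 and 0.751 at 0 min and between 2.45 and 3.90 at 30 min, and Slc6a19 over Slc3a1 was between 0.21 and 0.259 at 0 min and between 0.628 and 1.17 at 30 min. Neither ratio overlapped between the groups (p = 0.1 by a two-sided exact permutation test for each, the smallest it can give). Slc3a1 alone was already apart between them, at 293 to 324 FPKM at 0 min and 44.4 to 78.5 FPKM at 30 min. A gene that stayed level would also give ratios apart, so the test shows nothing further about Slc6a18 or Slc6a19.

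**Figure D3:**
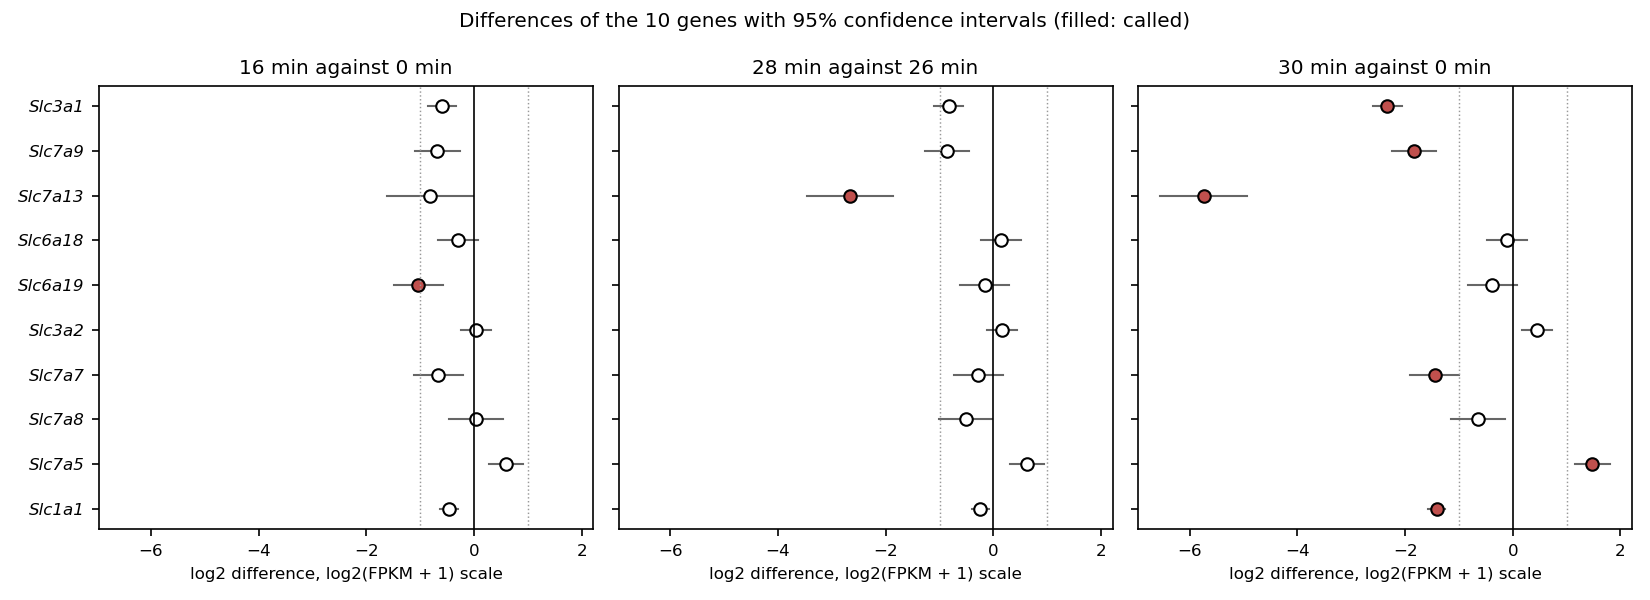
Log2 differences of the 10 genes on the log2(FPKM + 1) scale (x axis) with 95% confidence intervals, for 16 against 0 min, 28 against 26 min and 30 against 0 min, with filled points for called genes and dotted lines at -1 and 1. Only Slc6a19 is filled at 16 min and only Slc7a13 at 28 against 26 min, and at 30 min 6 of the 10 are filled, with Slc7a13 at -5.74 and Slc7a5 at 1.48.

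The basolateral heavy chain Slc3a2 lies at chr19:8706882-8723369 of GRCm38 on the minus strand, with 9 exons in its main transcript. It was at 110.0, 115 and 140 FPKM at 0 min, at 146, 144 and 149 FPKM at 28 min and at 148, 171 and 140.3 FPKM at 30 min. All 6 kidneys of 28 and 30 min were above the sham kidneys, the closest by less than 1 FPKM. The log2 difference was 0.44 ± 0.13 (SE) at 30 min (limma adjusted p = 0.0086), under the threshold for a call, and 0.32 at 28 min (adjusted p = 0.0562). From 16 to 26 min Slc3a2 ranged from 96.7 to 160.3 FPKM, overlapping the sham kidneys.

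Slc7a7, a light chain of Slc3a2 that releases dibasic amino acids to the blood and is lost in lysinuric protein intolerance, lies at chr14:54369442-54417780 of GRCm38 on the minus strand, with 12 exons. It was at 99.9, 137 and 130 FPKM at 0 min and between 50.4 and 112 FPKM from 16 to 26 min. It was at 88.1, 85.6 and 82.4 FPKM at 28 min and at 65.4, 36.9 and 33.8 FPKM at 30 min, and the 30 min kidneys were below those of 28 min. Slc7a7 was called at 30 min only among the 8 comparisons with 0 min (log2 difference -1.45 ± 0.22, limma adjusted p = 1.2e-05), and its log2 difference between 28 and 30 min was -0.93 (adjusted p = 0.009). That difference passed the fold threshold, at -1.21, without replicate 1 of 30 min.

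Slc7a8, a neutral amino acid exchanger that also pairs with Slc3a2, lies at chr14:54722209-54781946 of GRCm38 on the minus strand, 304428 bases from Slc7a7, with 11 exons. It was at 93.7, 70.0 and 79.2 FPKM at 0 min and between 51.7 and 124 FPKM from 16 to 26 min. Each group mean of 16 to 26 min, 89.3 to 102 FPKM, was above the sham mean of 81.0 FPKM. The kidneys overlapped with the sham kidneys at each of these times, with limma adjusted p between 0.485 and 0.957. Slc7a8 was at 62.4, 73.4 and 69.3 FPKM at 28 min and at 50.5, 60.5 and 45.6 FPKM at 30 min. The 30 min kidneys were below those of 0 and 28 min. The log2 difference at 30 min was -0.64 (95% interval -1.14 to -0.14, limma adjusted p = 0.0292), under the threshold for a call. Replicate 1 of 16 min was the lowest of its group for Slc7a8, Slc3a2, Slc7a7, Slc7a9 and Slc6a19, with Slc7a8 at 51.7 FPKM against 103 and 119 FPKM in the other kidneys.

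Slc7a5, the light chain of Slc3a2 that takes up large neutral amino acids in growing cells, lies at chr8:121881150-121907694 of GRCm38 on the minus strand, with 10 exons. It was the least abundant of the 10 genes, at 0.950, 1.02 and 1.06 FPKM at 0 min. It was at 2.38, 3.16 and 1.65 FPKM at 16 min, at 4.40, 4.98 and 3.73 FPKM at 28 min and at 5.50, 3.63 and 6.88 FPKM at 30 min. Every clamped kidney was above every sham kidney, and the kidneys of 28 and 30 min overlapped with each other and were all above those of 16 to 26 min. Slc7a5 was called at 28 min (log2 difference 1.27 ± 0.15, limma adjusted p = 1.2e-06) and at 30 min (1.48 ± 0.15, adjusted p = 1e-07). The ratio of the mean FPKM at 30 min to that at 0 min was 5.28, which the log2(FPKM + 1) scale understates at these levels. Between 26 and 28 min the log2 difference was 0.63 (adjusted p = 0.0069), under the threshold for a call. At 28 min 4 of the 10 genes were called against 0 min, Slc7a13, Slc3a1 and Slc7a9 lower and Slc7a5 higher, against 8.48% of all genes.

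Slc1a1, the glutamate and aspartate transporter whose loss causes dicarboxylic aminoaciduria, lies at chr19:28835049-28913960 of GRCm38 on the plus strand, with 12 exons. It was at 95.9, 98.3 and 87.7 FPKM at 0 min and between 61.2 and 71.8 FPKM in all 18 kidneys from 16 to 26 min. It was at 52.2, 57.3 and 63.6 FPKM at 28 min and at 38.1, 37.1 and 30.2 FPKM at 30 min. The sham kidneys and the 30 min kidneys each stood clear of all others. The log2 difference was -0.47 ± 0.08 (SE) at 16 min (limma adjusted p = 0.00044), -0.73 at 28 min and -1.41 ± 0.08 at 30 min (adjusted p = 4.1e-11), and the last was called. Between 28 and 30 min it fell by 0.68 on the log2 scale (adjusted p = 4.6e-05), against 0.24 between 26 and 28 min (adjusted p = 0.0315).

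Ordered by mean FPKM, the ischemia times gave different series for the 10 genes. For Slc7a13, Slc7a9, Slc3a1, Slc7a7 and Slc1a1 the 0 min group was the highest and 30 min the lowest. Slc3a2 and Slc7a5 had the opposite ends, with 30 min highest and 0 min lowest. Among the 8 pairs of neighbours in each order, the kidneys were fully apart in 3 pairs for Slc3a1 and Slc7a9, in 2 for Slc7a13, Slc1a1 and Slc7a5 and in 1 for Slc7a8. In Slc7a13 these pairs were 26 and 28 min and 28 and 30 min, and in Slc1a1 they were 0 and 20 min and 28 and 30 min. In Slc7a7, Slc3a2, Slc6a18 and Slc6a19 0 pairs of neighbours were apart, so 3 kidneys a group do not resolve neighbouring places in their orders. Times farther apart in an order could still be apart, as 28 and 30 min were for Slc7a7. The neighbours were set by the same means, and the share of all genes with pairs apart was not computed.

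The step from 26 to 28 min was set against the step from 0 to 16 min with limma. The study singled out this pair of intervals from expression clusters of these same kidneys, so the choice was not independent of the values. The difference between the steps was -1.85 on the log2 scale for Slc7a13 (95% interval -2.98 to -0.71, limma adjusted p = 0.0366), and 1 of the 10 genes passed an adjusted p of 0.05, against 9.42% of all genes. The call was lost, with the same sign, without replicate 2 or 3 of 0 min, replicate 1 or 3 of 16 min, replicate 2 or 3 of 26 min, or any replicate of 28 min (adjusted p between 0.0521 and 0.0979). For Slc6a19 the difference was 0.87 (adjusted p = 0.0798), with the larger fall in the first interval. It was 1.12 without replicate 3 of 16 min (adjusted p = 0.0151) and 0.56 without replicate 1 of 16 min, the ends of the range on leaving out each kidney.

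**Figure D4:**
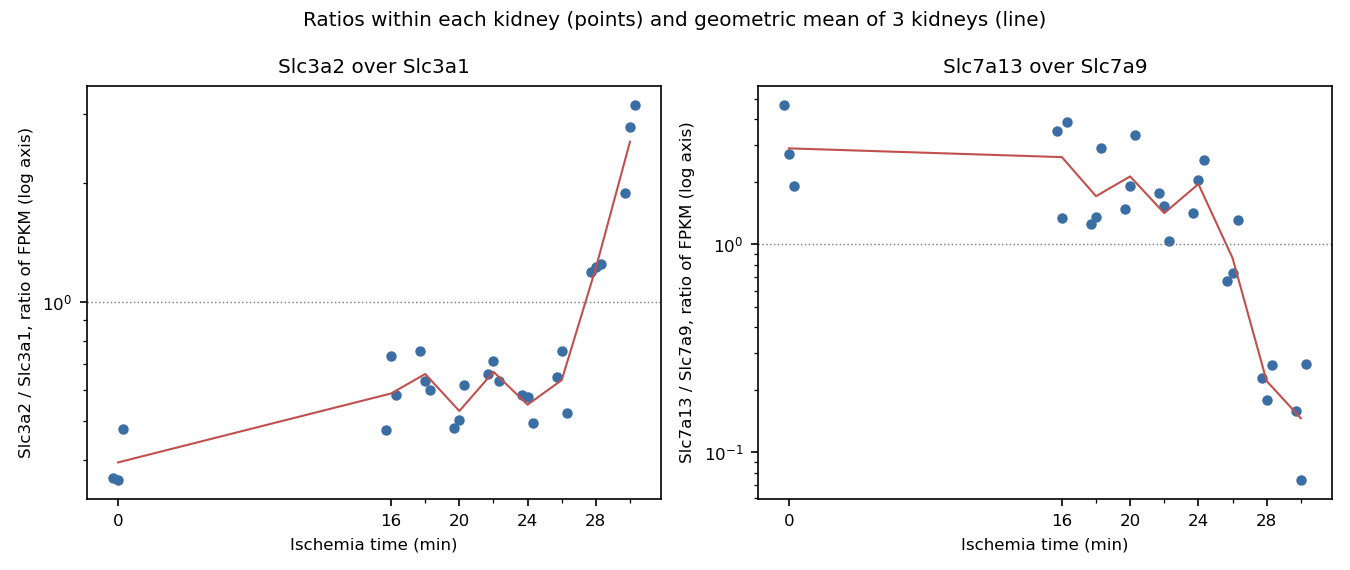
Ratios of FPKM within each kidney (y axis, log axis) against ischemia time in min (x axis), for Slc3a2 over Slc3a1 (left) and Slc7a13 over Slc7a9 (right), with 1 point per kidney and a line through the geometric means of 3 kidneys. Slc3a2 over Slc3a1 passes 1 between 26 and 28 min, and Slc7a13 over Slc7a9 is above 1 in every kidney from 0 to 24 min and below 0.27 in every kidney of 28 and 30 min.

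Ratios between partners were taken within each kidney, as ratios of FPKM. Of the 2 heavy chains, Slc3a2 had the lower FPKM in every kidney of 0 to 26 min and the higher at 28 and 30 min. At 30 min against 0 min the log2 difference was -2.33 for Slc3a1 and 0.44, not called, for Slc3a2. These are ratios of whole tissue, and the level of Slc3a2 in tubule cells alone was not measured. Slc3a2 over Slc3a1 had a geometric mean of 0.394 at 0 min and 0.636 at 26 min, then 1.22 at 28 min and 2.55 at 30 min, and the kidneys of 30 min, at 1.89 to 3.16, were all above those of 28 min, at 1.19 to 1.25. Slc7a13 over Slc7a9, the 2 light chains of Slc3a1, went from 2.90 at 0 min to 0.860 at 26 min, 0.220 at 28 min and 0.146 at 30 min. Slc7a9 over Slc3a1 was 0.257 at 0 min, 0.277 at 26 min and 0.275 at 28 min, with overlapping kidneys, and 0.370 at 30 min, with every kidney above the sham kidneys.

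Among the partners of Slc3a2, Slc7a7 over Slc3a2 was between 0.908 and 1.19 in the sham kidneys, and its geometric mean was 0.583 at 28 min and 0.284 at 30 min. The geometric mean of Slc7a8 over Slc3a2 was 0.664 at 0 min, 0.466 at 28 min and 0.339 at 30 min. Slc7a5 over Slc3a2 rose from 0.0083 at 0 min to 0.0338 at 30 min, so Slc7a5 remained far below its heavy chain in FPKM. Slc6a18 over Slc6a19 was 3.10 at 0 min and 3.34 at 30 min, with overlapping kidneys. In 24 exact two-sided permutation tests over 8 ratios, the smallest p that 3 kidneys against 3 can give, 0.1, was reached in 17 of them, with an adjusted p of 0.141, so none could pass 0.05.

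The summed FPKM of the 10 genes had a median of 1379 at 0 min and 968 at 26 min, and it was 757 at 28 min and 657 at 30 min. Slc7a13 made up 12.9% to 22.7% of that sum in the sham kidneys and 0.281% to 0.845% at 30 min.

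**Figure D5:**
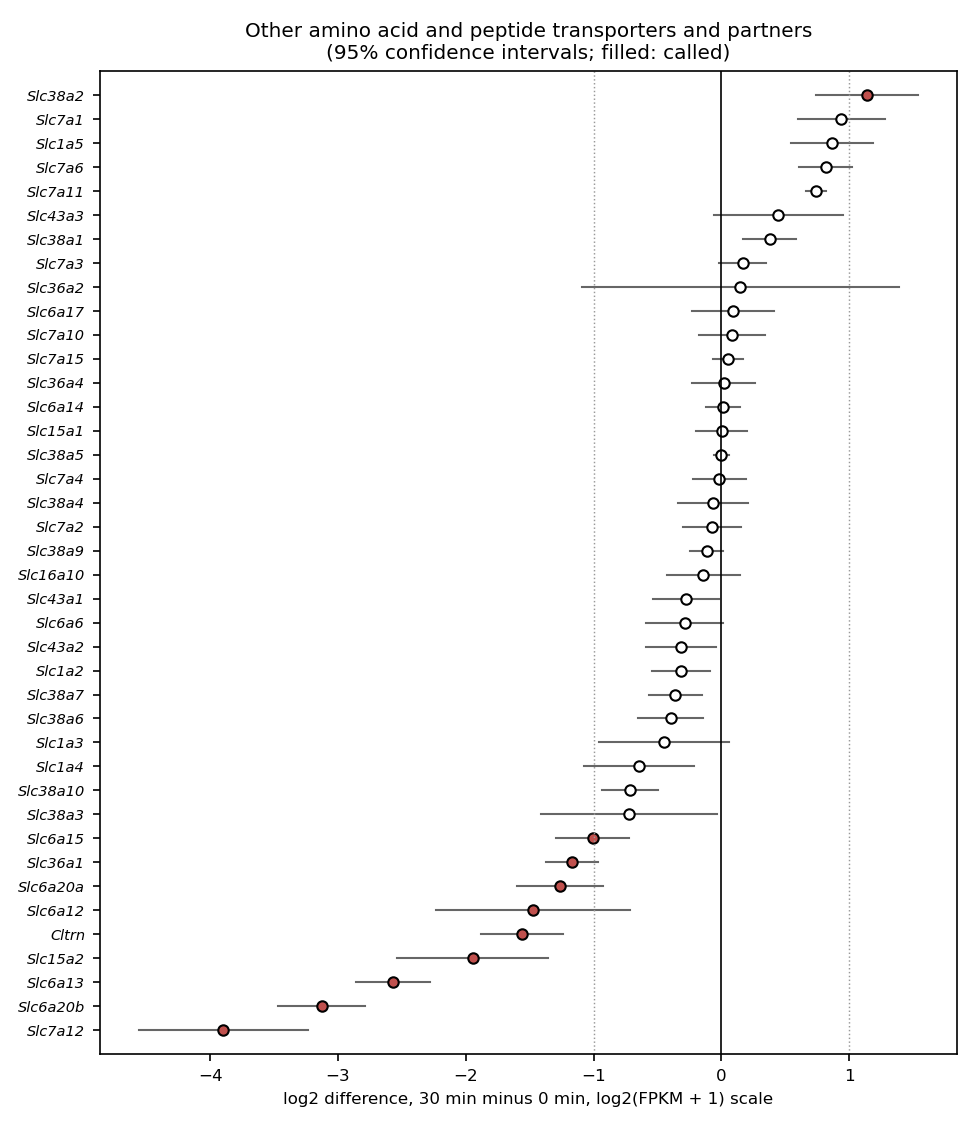
Log2 differences of 30 against 0 min (x axis, log2(FPKM + 1) scale) with 95% confidence intervals for 40 of the 41 other amino acid and peptide transporter genes and partners, ordered by value, with filled points for called genes (9 lower and 1 higher of those plotted) and dotted lines at -1 and 1. Slc7a12 is lowest at -3.90, and Slc38a2, at 1.14, is the 1 called higher.

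Beside the 10 genes, 42 other amino acid and peptide transporters and partner proteins were listed, of which 41 were in the table and tested. At 30 min against 0 min, 10 of the 41 were called lower and 1 higher, against 5.59% and 5.14% of all genes, and the median log2 difference was -0.14. At 28 against 26 min, 4 of the 41 were called lower and 0 higher, against 1.06% and 0.44% of all genes. Slc7a12, a relative of Slc7a13, went from 10.3 to 25.4 FPKM at 0 min to 0.08 to 0.73 FPKM at 30 min (log2 difference -3.90, limma adjusted p = 4.7e-09). The proline transporters Slc6a20b and Slc6a20a fell by 3.13 and 1.26 on the log2 scale, and as close copies of each other they may share fragments. Slc6a13, a GABA and taurine transporter, fell by 2.57, and Slc15a2, the peptide transporter PepT2, fell by 1.95.

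Cltrn (collectrin), the partner of Slc6a18 and Slc6a19 in the brush border, was at 967 to 990.1 FPKM at 0 min and at 260 to 391 FPKM at 30 min (log2 difference -1.56, limma adjusted p = 5.9e-08). Collectrin was called lower at 30 min, where Slc6a18 and Slc6a19 were not, and the difference between them was not tested. Slc6a12, a betaine and GABA transporter, was lower at 30 min (-1.47, adjusted p = 0.0019) and was the 1 listed gene called at 16 min (-1.09, adjusted p = 0.0413), where its FPKM overlapped with the sham kidneys and the call was lost without quantile normalization. Slc38a2 (SNAT2), at 16.7 to 25.2 FPKM at 0 min and 39.8 to 53.8 FPKM at 30 min, was the 1 listed gene called higher (1.14, adjusted p = 4.2e-05), and it is named because it was the single one.

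Markers of tubule segments and of injury also differed between ischemia times. Of all genes, 2.25% were called at 16 against 0 min and 1.06% were called lower at 28 against 26 min. At 30 against 0 min 5.59% of all genes were called lower and 5.14% higher. Of the 12 proximal tubule markers, 0 were called at 16 against 0 min, 2 were called lower at 28 against 26 min and 10 were called lower at 30 against 0 min, where their median log2 difference was -1.79. Their summed FPKM was 8113 to 8859 at 0 min and 5467 to 7926 at 26 min, and then 3682 to 3840 at 28 min and 2256 to 2844 at 30 min. Hnf4a, a transcription factor of the proximal tubule, was at 183, 200 and 214 FPKM at 0 min and 137, 126 and 95.6 FPKM at 30 min (log2 difference -0.61, limma adjusted p = 1.9e-05), under the threshold for a call. The 3 injured tubule markers (Havcr1, Lcn2 and Krt20) were called higher at 16 and at 30 min, with a summed FPKM of 12.2 to 86.8 at 0 min, 68.5 to 999.9 at 16 min and 2498 to 4903 at 30 min. At 30 min against 0 min, 2 of 3 loop of Henle, 2 of 3 distal tubule and 1 of 4 collecting duct markers were called lower, and replicate 3 of 30 min had the highest sum of the 30 min kidneys in each of these lists. The summed FPKM of the loop of Henle markers was 1566 to 1737 at 0 min and 509.1, 504.3 and 2190 at 30 min, so that kidney was above every sham kidney. The distal tubule sum was 344 to 428 at 0 min and 132, 156 and 225 at 30 min, and the collecting duct sum was 270.1 to 429 at 0 min and 223, 239 and 578 at 30 min. Of 3 neutrophil markers 2 were called higher, with a summed FPKM of 2.24 to 7.39 at 0 min and 13.7 to 22.2 at 30 min, and 0 of 3 podocyte markers were called, with sums of 37.4 to 52.7 and 60.3 to 103. Among 3 macrophage and 3 fibroblast markers 1 of each was higher and 1 lower, and 0 of 3 endothelial and 0 of 3 lymphocyte markers were called. The part of these markers in the results for the 10 transporter genes was not tested.

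Some loci overlap other annotated genes. Slc3a1 overlaps Prepl, Slc7a7 overlaps Oxa1l and Slc6a19 overlaps the antisense gene Slc6a19os, each on the opposite strand, and Slc7a5 and Slc1a1 also overlap genes on the opposite strand. Whether the counting used strand was not given in the sources used here, so reads of these overlapping genes may not be told apart. Slc7a13, Slc7a8, Slc7a9, Slc3a2 and Slc6a18 overlap 0 other annotated genes.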

How the data were processed

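The authors sequenced RNA of 27 left kidneys, 3 for each of 9 ischemia times, and deposited a linear FPKM value for each gene symbol in each kidney. The submitters' processing notes name Bowtie2, RSEM, DESeq2 and GRCm38.p6. Versions and the gene annotation used are not given in the sources used here. Read counts were not used, so depth is unknown. In limma the spread of a gene was estimated from the replicates of all 9 ischemia times together and moderated over genes. The SE of a gene was therefore the same in each comparison of 2 times. Replicates are different mice, and p-values measure the spread between them.

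After adding a pseudocount of 1 FPKM, log2 values were quantile normalized between kidneys, and all 27 kidneys entered one limma fit (limma 3.58.1, R 4.3.3) with a mean for each ischemia time. Genes had to exceed 0 FPKM in 3 kidneys or more, which left 18188. P-values were adjusted by Benjamini-Hochberg over these genes, and calls needed an absolute log2 difference above 1 and an adjusted p under 0.05. A fold change on this scale understates the change of genes at low FPKM, such as Slc7a5. Slopes over 16 to 26 min used ischemia time as a number, and slopes and the difference between steps were called on the adjusted p alone. Ratios were compared by exact two-sided permutation tests. The transporters, the other lists and the tests were chosen with earlier results of these data known. The genes named are the 10 transporters in every kidney, up to 8 listed other transporters with the largest absolute change among those called at 30 min, those called at 16 min, and the 3 genes most correlated with each transporter over 27 kidneys among genes with a mean of at least 1 FPKM. Some genes that the rule names are not reported here. Gene loci are from GENCODE M21 (GRCm38). The alternatives were another pseudocount, filter, scaling, threshold and fit, the replicate number as a block, and leaving out each kidney. They were computed for the counts and for the single values printed. The steps were tested on simulated data. Python 3.11.15 with scipy 1.17.1 and matplotlib 3.10.9 was used for the rest.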

Additional observations from a re-analysis of the deposited data

Results flagged for a closer look

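Slc7a13 differed between the intervals of 26 to 28 min and 0 to 16 min, by -1.85 on the log2 scale (limma adjusted p = 0.0366), and it is listed here because the same gene moved by different amounts in the 2 intervals. In this test 1 of the 10 transporter genes passed an adjusted p of 0.05, against 9.42% of all genes, so the share was close to that of all genes. For Slc7a13 the step from 26 to 28 min was -2.66 and that from 0 to 16 min was -0.82. Without replicate 3 of 16 min, the kidney with low Havcr1, the difference was -1.45 (adjusted p = 0.0755), and the adjusted p was likewise above 0.05 without each of 8 other single kidneys.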

How the results depend on the processing

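All 10 transporters were detected in every kidney, and the calls at 26, 28 and 30 min against 0 min (1, 4 and 6 genes) were of the same number under the other pseudocount, scalings, filters and fits tried at the same threshold, and without any 1 kidney of the compared groups. With the adjusted p alone, the counts against 0 min were 6 at 16 min, 5 at 18 min, 4 at 20 min, then 5 at 22 min, 7 at 24 min and 5 at 26 min, while 5 were called between 26 and 28 min, 3 between 28 and 30 min and 9 between 16 and 30 min. A pseudocount of 0.1 FPKM gave 2 calls at 22 min, as did FPKM rescaled to a constant sum, Slc7a5 joining Slc7a13. Rescaling and leaving out quantile normalization gave 0 calls at 16 min, and both, like the pseudocount of 0.1 FPKM, gave 0 of the other transporters there. Fits of only the compared groups gave 0 calls at 16, 18 and 24 min. Over all genes, the pseudocount of 0.1 FPKM raised the number called from 410 to 795 at 16 min and from 1950 to 3276 at 30 min against 0 min, and from 272 to 515 between 26 and 28 min. The cause of these changes was not tested. Without 1 kidney the counts ranged from 0 to 1 at 18 and 22 min, 0 to 2 at 16 and 24 min, 1 to 2 between 26 and 28 min, 0 to 2 between 28 and 30 min, 2 to 5 between 16 and 30 min, and 0 to 1 for the difference between steps.

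Values near 0 changed sign without 1 kidney. Slc3a2 at 16 min ranged from -0.076 to 0.21 and Slc7a8 at 16 min from -0.20 to 0.41. Slc6a18 ranged from -0.35 to 0.0082 at 26 min, -0.17 to 0.064 at 28 min and -0.27 to 0.098 at 30 min against 0 min, from -0.026 to 0.33 at 28 against 26 min and from -0.25 to 0.12 at 30 against 28 min. Replicate numbers did not pair the kidneys (mean correlation of deviations 0.0087 over 108 pairs with the same number, 10 of 27 kidneys closest to their own number). With the replicate number as a block 6 genes were called at 30 min, and no count of calls changed.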

Other observations

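Genes whose levels followed those of the transporters most closely were looked for among 12336 genes over the 27 kidneys, which share the large fall at 28 and 30 min, so these correlations are descriptions only. Slc7a13 was most like Mep1a (Pearson r = 0.99) and Mep1b (0.989), the subunits of the brush-border protease meprin, and Mpv17l (0.989). Mep1b went from a mean of 107 FPKM at 0 min to 1.20 FPKM at 30 min. Slc3a1 was most like Hgd (0.983), a tyrosine catabolism enzyme, the endocytic receptor Lrp2 (0.98) and Pgap6 (0.98). Slc1a1 was most like Lrp2 (0.958), Cubn (0.953) and the urate transporter Slc22a12 (0.952). Slc7a7 was most like the lactate transporter Slc5a12 (0.914). Slc3a2 was most like Synpo (0.836), Cdkn1c (0.826) and Pip5k1b (0.824). For Slc6a18 the closest gene was Rrp36, with r = 0.716.

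Between the 10 genes, deviations from the mean of each ischemia time correlated most for Slc7a8 and Slc3a2 (r = 0.838 over 27 kidneys) and least for Slc7a9 and Slc7a5 (r = -0.565), as descriptions over kidneys that share libraries and scaling.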
